A study of Mus musculus with 8 samples.

Results

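The enzymes that conjugate foreign compounds, hormones and bile acids were compared between hepatocytes with and without the cannabinoid 1 receptor gene *Cnr1*. The set held the UDP-glucuronosyltransferases (*Ugt1a*, *Ugt2* and *Ugt3*), the sulfotransferases (*Sult1* to *Sult6*), the glutathione S-transferases (*Gsta*, *Gstm*, *Gstp*, *Gstt*, *Gstk*, *Gsto* and *Gstz*) and the microsomal glutathione S-transferases (*Mgst*). Members were taken by symbol, through the accession on each array spot, and the rule used no signal. Of 70 mouse genes with such symbols in RefSeq, 58 had at least 1 named probe, out of 21368 genes named on the array. With 80 probes between them, 39 of the 58 entered the test, out of 11072 genes tested in all, since a gene needed a probe that the scanner software flagged as well above background on 4 or more arrays. Hepatocytes came from 4 hCNR1+/+ and 4 hCNR1-/- mice, 1 array per mouse, all male, 12 to 14 weeks old and on a standard diet, with no injury or drug. The hCNR1-/- mice (genotype hCNR1_cKO, strain CNRO Alb-Cre) carried a floxed *Cnr1* and Cre under the albumin promoter, which is active in hepatocytes. The hCNR1+/+ mice (genotype hCNR1_WT, strain CNRO) were control littermates, and since their strain label names no Alb-Cre, the presence of Cre and the loss of *Cnr1* cannot be told apart.

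Phase II conjugation makes lipophilic molecules soluble in water and ready for export into bile or blood. Glucuronosyltransferases sit in the endoplasmic reticulum and add glucuronic acid from UDP-glucuronate, cytosolic sulfotransferases add sulfate from the donor PAPS, and glutathione transferases couple reduced glutathione to electrophiles. The liver is the main site of all these reactions, and many of these genes are expressed differently in male and female mice and between the zones of the liver lobule.

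The values below are log2 spot intensities relative to each array, where 0 stands for the 75th percentile of that array's intensities. Probes differ in brightness for reasons of their own, so levels were compared between arrays for the same probe and never between genes. That percentile ranged from 62.0 to 139 intensity units on the hCNR1+/+ arrays and from 29.3 to 124 on the hCNR1-/- arrays. In each genotype replicate 4 was the dimmest. Between 28.6% and 42.3% of spots were well above background on an array. The slide was the same for all arrays, but its row 1 held the hCNR1+/+ and its row 2 the hCNR1-/- arrays, and row cannot be told apart from genotype. *Cnr1* itself cannot check the labels, because its probe was above background on 0 of 4 arrays in each genotype. All 12 hepatocyte markers were well above background on all 8 arrays.

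Of the 39 tested members, 1 rose in hCNR1-/- hepatocytes and 0 fell at an adjusted p below 0.05 (limma, Benjamini-Hochberg over 11072 genes). Over all tested genes these shares were 2.94% higher and 1.3% lower. At an unadjusted p below 0.05, 6 of 39 members passed in limma, against 21.6% of all tested genes. By a second rule, a fold change above 2 with an unadjusted p below 0.05, 3 members were higher (*Sult2a8*, *Sult1d1* and *Sult1e1*) and 1 was lower (*Ugt2b1*). The same rule called 4.78% of all genes higher and 3.75% lower. The 4 arrays of each genotype did not overlap for 1 higher member, *Sult2a8*, against 12.7% of all genes, and for 2 lower members, *Mgst1* and *Ugt2b1*, against 5.04%. As shares of the 39 members, the calls were 2.56% and 0% at the adjusted threshold, 7.69% and 2.56% by the fold rule, and 2.56% and 5.13% without overlap, higher and lower in turn. These differences from the shares over all genes were not tested. The log2 fold change was below 0 for 25 members and above 0 for 14, with a median of -0.17. Of all 11072 tested genes, 4808 were below 0 and 6264 above 0, with a median of 0.08. In 35 of 39 members the fold change lay within 1 log2 unit of 0, and for 12 the whole 95% interval did.

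**Figure D1:**
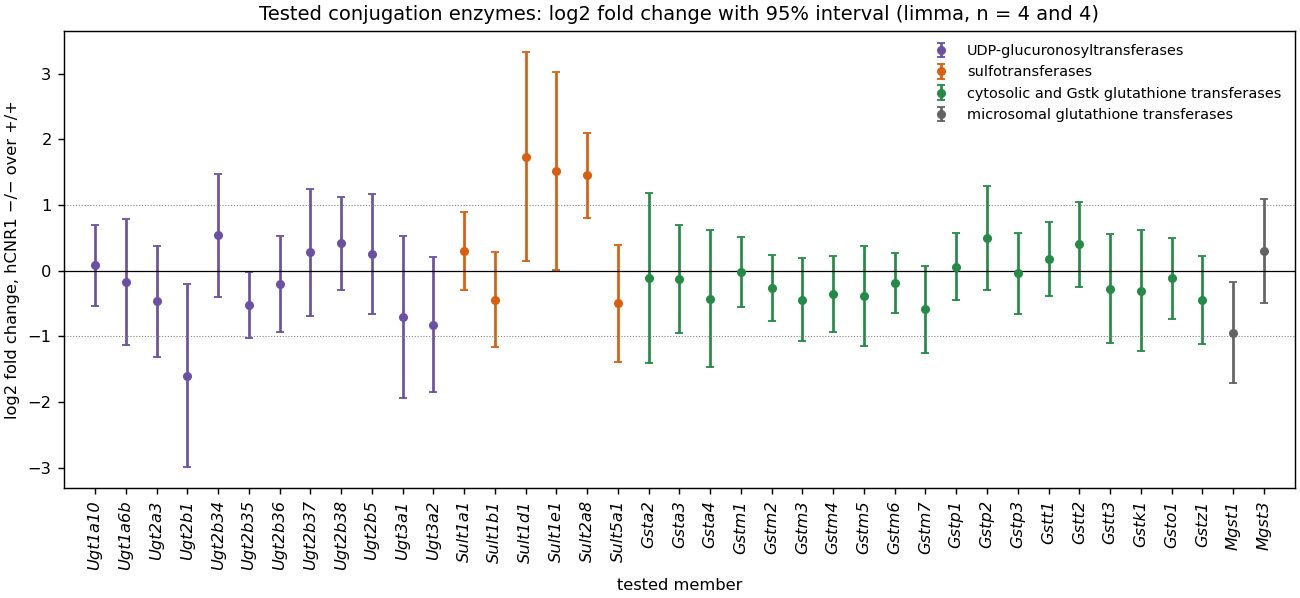
Log2 fold change of each tested conjugation enzyme, hCNR1-/- over hCNR1+/+ (vertical axis), for the 39 tested members in the order of their families (horizontal axis). Points are limma estimates from 4 and 4 arrays, bars are 95% intervals, and dotted lines mark a fold change of 2 in either direction. Only *Sult1d1*, *Sult1e1*, *Sult2a8* and *Ugt2b1* lie outside the dotted lines, and the interval of *Sult2a8* (0.80 to 2.10) is the narrowest of these 4.

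The 250 bases upstream of the annotated starts are printed for the 4 genes that passed the fold rule, since the results turn on them, and because *Sult1d1* and *Sult1e1* are neighbours whose signals went together across the arrays. Sequences run 5' to 3' on the gene's strand, come from RefSeq (GRCm38.p6) and end at the base before the start. Capitals mark matches, on either strand, to TATAAA (the TATA box), GTTAAT (a core bound by hepatocyte nuclear factor 1), AGGTCA (the hexamer of many nuclear receptors), GCGTG (the core bound by the aryl hydrocarbon receptor) and TGACNNNGC (the core of the antioxidant response element), the last of which can overlap a reverse AGGTCA.
Sult2a8, start farther upstream (chr7:14446588-14446837, minus strand): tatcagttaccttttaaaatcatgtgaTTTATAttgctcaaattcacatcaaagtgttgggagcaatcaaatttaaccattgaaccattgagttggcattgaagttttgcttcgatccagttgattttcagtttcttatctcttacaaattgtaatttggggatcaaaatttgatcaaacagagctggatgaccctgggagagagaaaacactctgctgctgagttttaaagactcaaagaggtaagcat
Sult2a8, start farther downstream (chr7:14438552-14438801, minus strand): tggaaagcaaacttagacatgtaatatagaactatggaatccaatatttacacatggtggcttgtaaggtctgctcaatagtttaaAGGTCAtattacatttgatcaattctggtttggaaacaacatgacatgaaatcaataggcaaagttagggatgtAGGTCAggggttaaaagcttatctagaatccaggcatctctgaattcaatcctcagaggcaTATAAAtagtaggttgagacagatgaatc
Sult1d1 (chr5:87569007-87569256, minus strand): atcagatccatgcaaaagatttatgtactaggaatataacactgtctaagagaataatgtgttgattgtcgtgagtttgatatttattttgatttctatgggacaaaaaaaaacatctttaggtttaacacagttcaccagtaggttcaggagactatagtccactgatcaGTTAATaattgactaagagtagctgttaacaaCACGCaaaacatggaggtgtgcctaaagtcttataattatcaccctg
Sult1e1 (chr5:87591612-87591861, minus strand): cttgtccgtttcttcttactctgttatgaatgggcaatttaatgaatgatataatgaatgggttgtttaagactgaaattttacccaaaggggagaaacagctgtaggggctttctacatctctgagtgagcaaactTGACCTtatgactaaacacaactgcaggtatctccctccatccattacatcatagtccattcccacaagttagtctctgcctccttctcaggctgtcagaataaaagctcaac
Ugt2b1 (chr5:86926504-86926753, minus strand): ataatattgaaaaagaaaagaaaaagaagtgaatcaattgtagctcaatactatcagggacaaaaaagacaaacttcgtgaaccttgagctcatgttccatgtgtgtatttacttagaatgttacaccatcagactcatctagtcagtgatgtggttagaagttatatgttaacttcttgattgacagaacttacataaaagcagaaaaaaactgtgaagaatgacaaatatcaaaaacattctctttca
*Sult2a8* has 2 annotated starts. The downstream start had TATAAA at -29 and AGGTCA at -164 and -90, and the upstream start had a reverse TATAAA at -223. *Sult1d1* had GTTAAT at -79 and a reverse GCGTG at -47, *Sult1e1* had a reverse AGGTCA at -113, and the *Ugt2b1* window held none of the 5 motifs. The neighbours *Sult1d1* and *Sult1e1* shared no motif of the 5. Across 45 promoter windows of 35 member genes, TATAAA stood in 6, GTTAAT in 6, AGGTCA in 9, GCGTG in 9 and TGACNNNGC in 4. Of 32851 mouse promoter windows of the same length, 12.4%, 6.43%, 14%, 28.2% and 10.2% held these motifs in the same order. A match is a match of letters, and whether a factor binds there was not measured.

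Sulfotransferases gave the 3 largest positive log2 fold changes of the set, and 1 of 6 tested genes, *Sult2a8*, passed the adjusted threshold. *Sult2a8* encodes a liver sulfotransferase that acts on bile acids. Its log2 signal was 0.92, 0.97, 0.47 and 0.59 on the hCNR1+/+ arrays and 1.62, 2.22, 2.91 and 1.996 on the hCNR1-/- arrays. Every hCNR1-/- array was above every hCNR1+/+ array. The rise was 1.45 ± 0.29 on the log2 scale (SE, 4 and 4 arrays; 95% interval 0.80 to 2.10; limma, adjusted p = 0.0310), a fold change of 2.73. The exact permutation test over 70 assignments gave a two-sided p of 0.0286, the smallest it can give. Any gene whose groups do not overlap gets this p, so it adds nothing to the lack of overlap. When single arrays were left out, the log2 fold change stayed between 1.21 and 1.64, but the adjusted p stayed below 0.05 only without hCNR1-/- replicate 1 (0.0496) or replicate 4 (0.0222), and it was between 0.0594 and 0.108 without any other array. The call was also lost under median scaling (adjusted p = 0.335), without scaling (0.817), with the percentile over probes well above background on all arrays (0.0523), with the deposited z-scores (0.107), with the normexp background correction (0.210), without a filter on dim probes (0.147) and with the replicate number as a block (0.0945). In bulk RNA, a change in the share of cells that express a gene and a change in RNA per cell cannot be told apart.

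*Sult1e1*, the estrogen sulfotransferase, and *Sult1d1*, which sulfates catecholamines such as dopamine, passed the fold rule but not the adjusted threshold. *Sult1d1* had log2 signals of 3.08, 2.03, 0.74 and -0.29 on the hCNR1+/+ arrays and 2.73, 2.08, 3.49 and 4.21 on the hCNR1-/- arrays. *Sult1e1* had 4.89, 3.73, 2.48 and 1.22 on the hCNR1+/+ arrays and 4.36, 4.16, 4.75 and 5.13 on the hCNR1-/- arrays. For both genes the groups overlapped, since hCNR1+/+ replicate 1 was as high as the hCNR1-/- arrays while replicates 3 and 4 were far below all of them. The spread between the hCNR1+/+ arrays was thus wide, with a range of 3.67 for *Sult1e1* against 0.97 in hCNR1-/-. Replicate 4, the lowest, was also the dimmest hCNR1+/+ array, and its part in this spread was not tested. The log2 fold change of *Sult1d1* was 1.74 ± 0.71 (SE, 4 and 4 arrays; limma, adjusted p = 0.196). That of *Sult1e1* was 1.52 ± 0.67 (SE, 4 and 4 arrays; limma, adjusted p = 0.228). Without hCNR1+/+ replicate 4 they were 1.18 and 0.90, and without hCNR1+/+ replicate 1 they were 2.30 and 2.12. Both genes also left the fold rule without hCNR1+/+ replicate 3 (1.52 and 1.32) or hCNR1-/- replicate 3 (1.61 and 1.47) or replicate 4 (1.37 and 1.34). *Sult1e1* alone also left it without hCNR1-/- replicate 1 (1.60) or replicate 2 (1.67).

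*Sult1a1*, the main phenol sulfotransferase, had log2 signals of 6.54, 6.25, 6.05 and 5.38 in hCNR1+/+ and 6.51, 6.49, 6.15 and 6.25 in hCNR1-/- hepatocytes. All 4 hCNR1-/- arrays lay within the hCNR1+/+ range, and the log2 fold change was 0.30 with a 95% interval of -0.30 to 0.89. *Sult5a1* gave 1.22, 1.39, 1.87 and 2.82 in hCNR1+/+ and 0.51, 1.63, 1.38 and 1.77 in hCNR1-/-, a log2 fold change of -0.50 (95% interval -1.40 to 0.39). *Sult1b1*, which sulfates thyroid hormones, had -0.44 (95% interval -1.17 to 0.29).

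**Figure D2:**
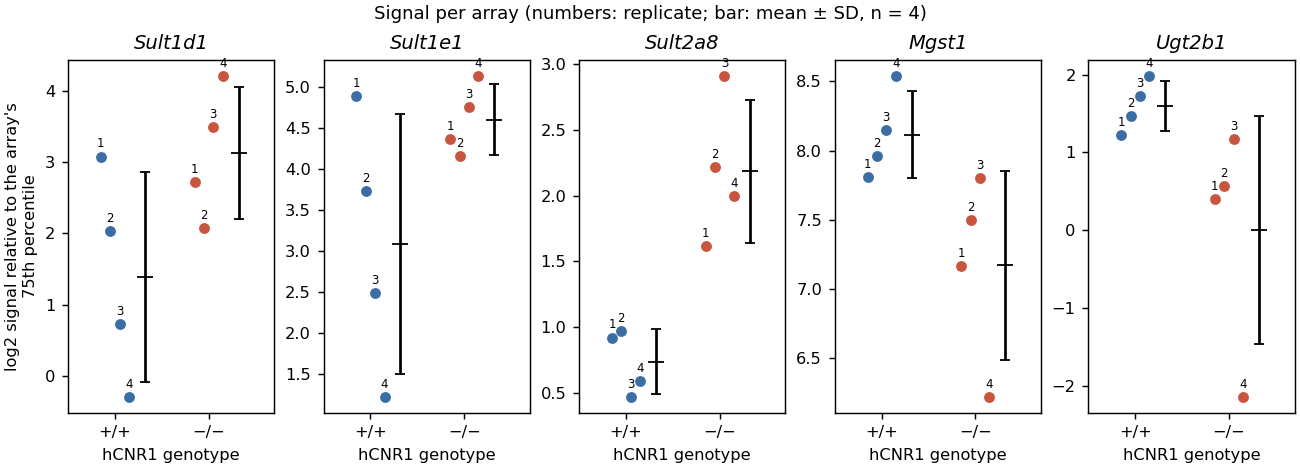
Log2 signal relative to the array's 75th percentile (vertical axis) on each of the 4 hCNR1+/+ and 4 hCNR1-/- arrays for the 5 members that passed the fold rule or whose groups did not overlap. Numbered points are arrays, and bars are the mean ± SD of 4. The groups are separate for *Sult2a8*, *Mgst1* and *Ugt2b1* and overlap for *Sult1d1* and *Sult1e1*, where hCNR1+/+ replicate 4 is the lowest point (-0.29 and 1.22).

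Of 12 tested glucuronosyltransferases, 0 passed the adjusted threshold, 7 had a log2 fold change below 0 and 5 above 0, with a median of -0.19. *Ugt2b1*, of the subfamily that glucuronidates steroids and many drugs, had log2 signals of 1.23, 1.46, 1.72 and 1.98 in hCNR1+/+ and 0.40, 0.57, 1.17 and -2.14 in hCNR1-/- hepatocytes. All hCNR1-/- arrays were below all hCNR1+/+ arrays, and the last, replicate 4, was the single array on which this probe was not well above background. The log2 fold change was -1.60 ± 0.62 (SE, 4 and 4 arrays; limma, adjusted p = 0.173), with an exact permutation p of 0.0286 before any adjustment for 39 genes. Without hCNR1-/- replicate 4 it was -0.89, and the fold rule was also not met without hCNR1+/+ replicate 3 (-1.56) or replicate 4 (-1.47). *Ugt2b35* gave 2.88, 2.44, 2.62 and 2.15 in hCNR1+/+ and 2.23, 1.79, 2.13 and 1.86 in hCNR1-/-, so that 1 hCNR1-/- array reached into the hCNR1+/+ range. Its log2 fold change was -0.52 ± 0.22 (SE, 4 and 4 arrays; limma, adjusted p = 0.219).

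*Ugt2b38*, of the same subfamily, had log2 signals of 5.46, 5.27, 4.66 and 4.09 in hCNR1+/+ and 5.21, 4.99, 5.58 and 5.37 in hCNR1-/- hepatocytes, for a log2 fold change of 0.42 (95% interval -0.29 to 1.12). *Ugt2a3* had 1.94, 2.36, 2.74 and 3.24 in hCNR1+/+ and 2.12, 1.76, 3.002 and 1.53 in hCNR1-/-, a log2 fold change of -0.47 (95% interval -1.32 to 0.38). The groups overlapped for both. *Ugt1a6b*, of the locus whose members take phenols and bilirubin, gave 7.22, 7.28, 7.83 and 9.03 in hCNR1+/+ and 7.40, 8.18, 8.01 and 7.07 in hCNR1-/-, and its log2 fold change was -0.17 (95% interval -1.13 to 0.78). *Ugt1a10* was tested too and had 0.08 (95% interval -0.54 to 0.70), while 6 other *Ugt1a* genes, *Ugt1a1* among them, had no named probe here. *Ugt3a2* and *Ugt3a1*, whose family uses other UDP-sugars as donors, had log2 fold changes of -0.82 and -0.70, with 95% intervals that reached 0.21 and 0.53. For *Ugt3a2* the values were 4.17, 4.33, 4.75 and 5.61 in hCNR1+/+ and 4.23, 4.34, 4.40 and 2.59 in hCNR1-/-, where replicate 4 stood apart from the rest.

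The *Ugt2* genes and 3 *Sult1* genes lie next to each other on chromosome 5, and 11 of 13 of these were tested. Within the hCNR1+/+ group replicate 1 was the highest array in 9 of 11 and replicate 4 the lowest in 9 of 11. Over all tested genes replicate 1 was the highest of its group in 27.4% and replicate 4 the lowest in 29.8%. The exceptions were *Ugt2b1* and *Ugt2a3*, in which replicate 4 was the highest. Within the hCNR1-/- group replicate 3 was the highest in 7 of 11, against 20.4% of all genes. In hCNR1+/+ hepatocytes the 11 genes had a median SD of 0.62, against 0.43 in hCNR1-/-, while the other 28 members had 0.35 and 0.52 and all tested genes 0.29 and 0.45. By the median SD, the genes of this stretch thus differed more between the hCNR1+/+ arrays than other genes did. Replicate 4 was the dimmest hCNR1+/+ array, and its part in these differences was not tested. Genes of the same family, *Ugt2* or *Sult1*, are relatives, so probes within a family may not be independent. This was noticed in the values and carries no test.

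**Figure D3:**
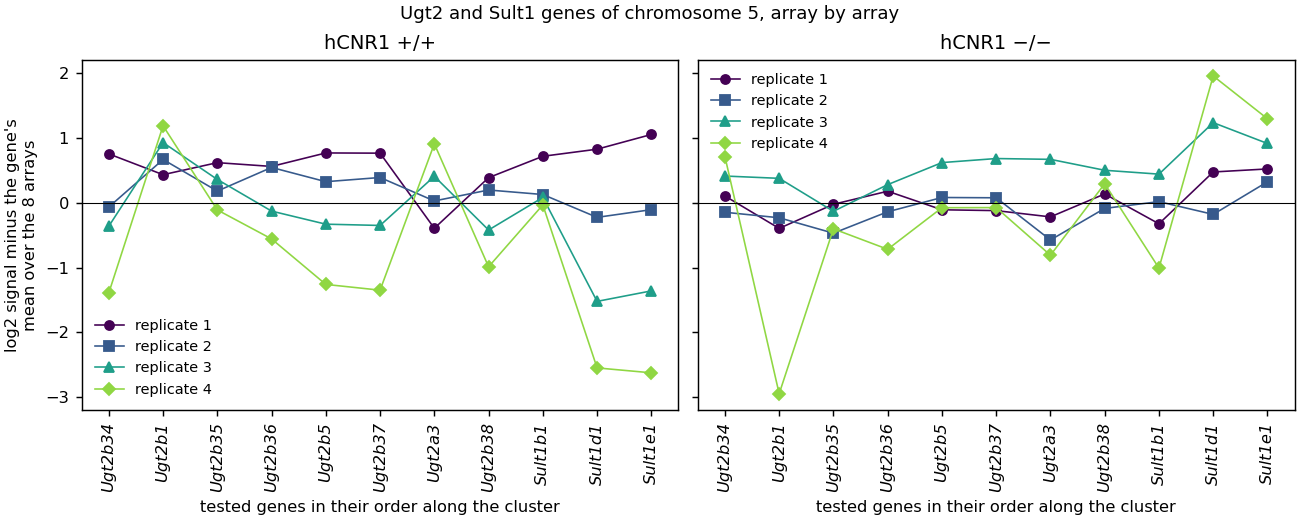
Log2 signal minus the gene's mean over the 8 arrays (vertical axis) for the 11 tested *Ugt2* and *Sult1* genes of chromosome 5 in their order along the chromosome, in hCNR1+/+ (left) and hCNR1-/- (right) hepatocytes. Each line is an array. In hCNR1+/+, replicate 1 runs on top and replicate 4 at the bottom for 9 of 11 genes, with *Ugt2b1* and *Ugt2a3* in the opposite order.

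Of 19 tested glutathione S-transferases outside the microsomal family, 0 passed the adjusted threshold in either direction and 0 passed the fold rule, and their log2 fold changes ran from -0.59 to 0.49 with a median of -0.19. In the mu class (*Gstm*) all 7 tested genes had a log2 fold change below 0, between -0.59 and -0.02, with a median of -0.36, and so did each of their 15 probes taken singly, but with the deposited z-scores 6 of 7 were below 0. When single arrays were left out, 6 or 7 of 7 were below 0. Of all 11072 tested genes 4808 were below 0, and the *Gstm* probes may share signal, so they may not be independent. Of those 15 probes, 2 had an unadjusted p below 0.05 in limma, 1 for *Gstm6* and 1 for *Gstm7*. Over all tested genes, each by the probe used, 21.6% had such a p. *Gstm1*, an abundant transferase of the liver, had log2 signals of 9.03, 9.09, 9.28 and 9.04 in hCNR1+/+ and 8.87, 9.10, 8.71 and 9.66 in hCNR1-/- hepatocytes. These ranges overlapped, and the log2 fold change was -0.02 (95% interval -0.56 to 0.51). *Gstm3* showed 5.87, 5.65, 5.77 and 5.62 in hCNR1+/+ and 5.45, 4.98, 4.72 and 5.998 in hCNR1-/-. Here 3 hCNR1-/- arrays were below all hCNR1+/+ arrays and the dimmest, replicate 4, was above them. The log2 fold change of *Gstm3* was -0.44 ± 0.28 (SE, 4 and 4 arrays; limma, adjusted p = 0.403). *Gstm7* had the lowest value of the class, -0.59 ± 0.30 (SE, 4 and 4 arrays; limma, adjusted p = 0.281).

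In the alpha class, whose members reduce lipid peroxides, *Gsta3* had log2 signals of 6.82, 7.42, 7.51 and 7.83 in hCNR1+/+ and 7.15, 7.82, 7.76 and 6.34 in hCNR1-/- hepatocytes. The log2 fold change was -0.13 (95% interval -0.94 to 0.69), and the intervals of *Gsta2* (-0.11) and *Gsta4* (-0.43) also spanned 0. The pi class, prominent in the male mouse liver, had *Gstp2* at 10.31, 10.29, 10.50 and 11.11 in hCNR1+/+ and 10.44, 11.04, 10.69 and 12.00 in hCNR1-/-, a log2 fold change of 0.49 (95% interval -0.30 to 1.29). *Gstp1* (0.06) and *Gstp3* (-0.04) lay near 0. In the theta class *Gstt1*, which conjugates small halogenated compounds, had 6.89, 7.18, 7.35 and 7.66 in hCNR1+/+ and 7.11, 7.63, 7.20 and 7.83 in hCNR1-/-, a log2 fold change of 0.18 (95% interval -0.39 to 0.74).

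Single genes stood for the remaining classes. *Gstk1*, of peroxisomes and mitochondria, had 4.66, 4.96, 5.47 and 6.19 in hCNR1+/+ and 4.79, 5.57, 5.54 and 4.15 in hCNR1-/- hepatocytes, with a log2 fold change of -0.30 (95% interval -1.23 to 0.62). *Gsto1*, which reduces dehydroascorbate and arsenic compounds, had 7.14, 7.01, 7.06 and 6.44 against 7.05, 7.05, 6.94 and 6.13, with a log2 fold change of -0.12 (95% interval -0.73 to 0.50). *Gstz1*, an isomerase of tyrosine breakdown, had 6.26, 6.47, 6.46 and 6.86 against 6.01, 6.62, 6.34 and 5.32, with a log2 fold change of -0.45 (95% interval -1.11 to 0.22). In all 3 the lowest value was that of hCNR1-/- replicate 4, the dimmest array, which was the lowest of its group in 41% of members and 53.3% of all tested genes.

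*Mgst1*, a membrane-bound transferase and peroxidase of the endoplasmic reticulum and the outer mitochondrial membrane, had log2 signals of 7.81, 7.96, 8.15 and 8.54 in hCNR1+/+ and 7.16, 7.50, 7.80 and 6.22 in hCNR1-/- hepatocytes. All hCNR1-/- arrays were below all hCNR1+/+ arrays, by a narrow margin between 7.80 and 7.81. The log2 fold change was -0.94 ± 0.34 (SE, 4 and 4 arrays; limma, adjusted p = 0.151; exact permutation p = 0.0286 before adjustment), and its second probe gave -0.88. Without hCNR1-/- replicate 4 it was -0.63. *Mgst3* had a log2 fold change of 0.29 (95% interval -0.50 to 1.09).

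More than 1 tested probe stood for 16 of the 39 genes, and in 13 of these all probes had the same sign. The 2 probes of *Sult1d1* gave 1.74 and 2.01. The second was dim, with a mean log2 signal of -2.35 over the arrays, against 2.26 for the probe used. Its adjusted p was 0.0876 (limma, over all probes tested). In which genotype this dim probe was well above background is not reported here, so its p is not read as a result. The probes differed in sign for *Gstp1*, *Ugt1a6b* and *Ugt3a2*. The gap was 1.60 for *Ugt3a2*, whose dimmer probe had a log2 fold change of 0.78 while the probe used had -0.82, so that the direction of this gene depends on the probe. For *Ugt1a6b* the probe used had -0.17 and the dimmer probe 0.14. Where on each transcript the probes bind was not analysed here, and close relatives within *Ugt1a*, *Ugt2b*, *Gstm*, *Gsta* and *Gstp* may share signal. The values given for *Ugt1a6b* may thus include other genes of its locus.

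**Figure D4:**
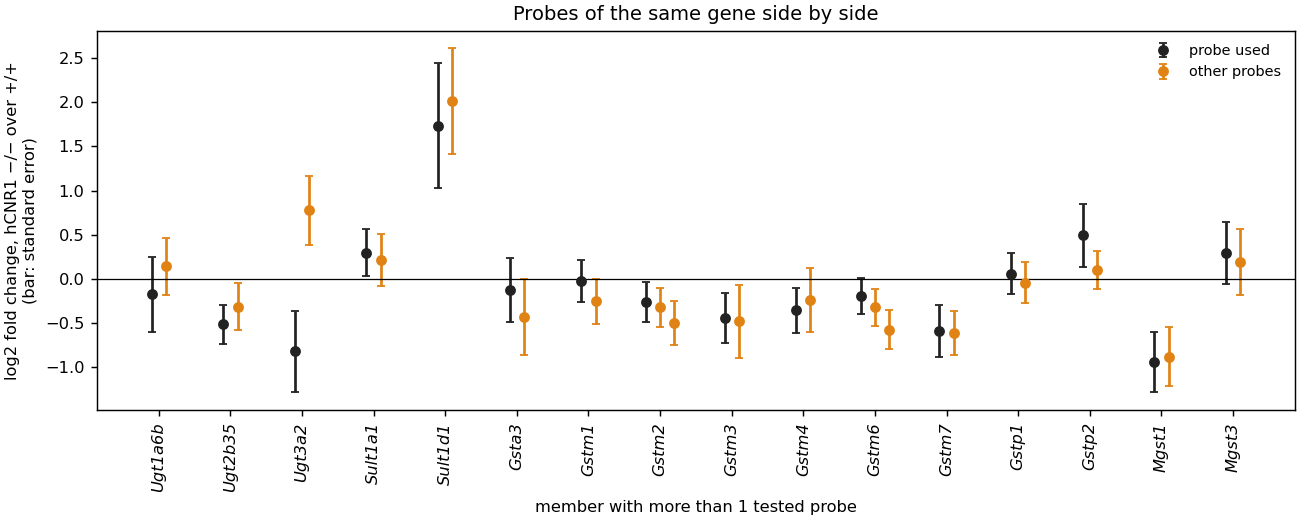
Log2 fold change, hCNR1-/- over hCNR1+/+ (vertical axis), of every tested probe for the 16 members with more than 1 tested probe (horizontal axis). Black points are the brightest probe, used for the gene, orange points are the other probes, and bars are standard errors from 4 and 4 arrays. The probes of *Ugt3a2* lie on opposite sides of 0, and those of the *Gstm* genes all lie below it at this scaling, while with the z-scores *Gstm1* lies at 0.052.

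Among the 19 members that were not tested, 14 were well above background on 0 of 8 arrays. They were *Gstt4*, *Mgst2*, *Sult1c1*, *Sult2a1*, *Sult2a2*, *Sult2a3*, *Sult2a4*, *Sult2a7*, *Sult2b1*, *Sult3a1*, *Sult3a2*, *Sult6b1*, *Ugt1a6a* and *Ugt2a1*. Another 4, *Sult1c2*, *Sult2a6*, *Sult4a1* and *Sult6b2*, were well above background on 1 hCNR1+/+ array each. *Sult2a8* was thus the single *Sult2* gene that could be tested in these male hepatocytes. *Gsto2* had the flag on 3 of 4 hCNR1+/+ arrays, and in hCNR1-/- hepatocytes on 0 of 4. Its log2 signals were -1.30, -3.41, -1.24 and -1.62 in hCNR1+/+ and -3.10, -4.03, -4.32 and -2.84 in hCNR1-/- hepatocytes. Set against a floor of the hCNR1-/- arrays, the mean over all 4 hCNR1+/+ arrays was 1.25-fold higher, with no test. That floor is, on each array, the lowest signal among all probes well above background or the probe's own signal, whichever is higher. It is not the detection limit of this probe, so the fold is not a lower bound.

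The genes around the conjugation step were read from lists of cofactor supply, related enzymes, export, hydrolysis and regulation. Of 9 tested genes that supply UDP-glucuronate or PAPS, 1 rose and 0 fell at the adjusted threshold, with a median log2 fold change of 0.07, close to the 0.08 of all tested genes. The gene that rose was *Slc35d1*, a transporter that carries UDP-glucuronate into the endoplasmic reticulum. It had log2 signals of 3.87, 4.35, 4.49 and 3.57 in hCNR1+/+ and 5.26, 5.04, 5.26 and 6.13 in hCNR1-/- hepatocytes, with no overlap, a rise of 1.36 ± 0.31 (SE, 4 and 4 arrays; limma, adjusted p = 0.0427). *Bpnt2*, a phosphatase of the Golgi that clears the product left by PAPS, had 1.96 ± 0.61 (SE, 4 and 4 arrays; limma, adjusted p = 0.103). Of 10 tested genes for glutathione supply, 0 passed in either direction, with a median of 0.08. The smallest p-values of that list were those of *Gss*, glutathione synthetase, with 0.56 (limma, adjusted p = 0.189), and *Gsr*, glutathione reductase, with 0.42 (limma, adjusted p = 0.417). Of 13 other conjugating enzymes 0 passed, with a median of -0.11. *Acsm5*, an acyl-CoA synthetase, had -0.84 (limma, adjusted p = 0.256).

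Among 10 tested genes that export or process conjugates, 1 rose, with a median of 0.11 over the 10, and *Abcc1* is given apart below. *Abcc2*, the pump that moves glucuronides and glutathione conjugates into bile, rose from 2.05, 2.20, 1.97 and 2.43 in hCNR1+/+ to 3.47, 3.11, 3.45 and 3.06 in hCNR1-/- hepatocytes. The groups did not overlap, and the rise was 1.11 ± 0.21 (SE, 4 and 4 arrays; limma, adjusted p = 0.0258). *Abcc1*, a related pump that is low in hepatocytes, had the flag on all 4 hCNR1+/+ arrays, and in hCNR1-/- hepatocytes on 0 of 4. It had log2 signals of -1.22, -1.08, -0.55 and 0.48 in hCNR1+/+ and -2.94, -1.92, -2.68 and -2.86 in hCNR1-/-. Against the same kind of floor of the hCNR1-/- arrays it was 2.83-fold higher in hCNR1+/+, which is not a lower bound. Since *Abcc1* entered the test only through the group where it was high, its p is not read as a result. Of 3 tested genes that hydrolyse conjugates 0 passed, with a median of 0.15. *Gusb*, beta-glucuronidase, had -0.66 (limma, adjusted p = 0.215) and *Arsa*, a sulfatase, had 0.15 (limma, adjusted p = 0.689).

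Of 18 tested regulators of conjugation genes, 0 passed the adjusted threshold and their median log2 fold change was -0.02. The 2 with the smallest p-values were *Nr3c1*, the glucocorticoid receptor, with 0.98 ± 0.48 (SE, 4 and 4 arrays; limma, adjusted p = 0.267), and *Nr1i2*, the pregnane X receptor, with -0.39 ± 0.19 (SE, 4 and 4 arrays; limma, adjusted p = 0.269). No regulator was called by either rule, and 9 had a log2 fold change above 0 and 9 below 0.

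Markers of other cells and of the liver zones were read beside these values. The mean log2 signal of the 39 tested members was 4.01 to 4.04 on the hCNR1+/+ arrays and 3.78 to 4.09 on the hCNR1-/- arrays. The hepatocyte markers spanned 8.74 to 9.44 and 8.85 to 9.66 and overlapped as well, with 1 of 12 higher at the adjusted threshold. Of 14 Kupffer cell markers 11 were tested, and all 11 had a log2 fold change below 0. The mean signal of the 11 was 1.10 to 2.35 in hCNR1+/+ and 0.05 to 0.90 in hCNR1-/-. At the adjusted threshold 2 fell (*Ctss* and *Marco*). *Marco* was well above background on all 8 arrays, but *Ctss* on 4 of 4 hCNR1+/+ and 2 of 4 hCNR1-/- arrays. The fall of *Ctss* thus rests in part on signals near background. Of the 3 markers not tested, *Fcgr1* and *Timd4* were well above background on 0 arrays and *Adgre1* on 3. Of 12 periportal hepatocyte markers 11 had a log2 fold change below 0 and 1 above, with a median of -0.95, and 3 fell (*Etnppl*, *Hsd17b13* and *Hal*). The mean signal of the 12 was 4.94 to 5.96 in hCNR1+/+ and 4.22 to 4.81 in hCNR1-/-. Of 8 tested pericentral markers 5 were below 0 and 3 above, and 1 fell (*Slc1a2*), with 3.74 to 4.63 and 3.42 to 3.87. Of 10 tested endothelial markers 7 were below 0 and 3 above, and 0 passed, with 0.29 to 1.17 and 0.20 to 0.72. Stellate cell, cholangiocyte, and lymphocyte and neutrophil markers had 1, 2 and 2 tested genes, with 0 called. The part of cell or zone composition in the values of the conjugation enzymes was not tested.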

How the data were processed

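Global mRNA of isolated hepatocytes was measured with 1-colour Agilent arrays in 4 hCNR1+/+ and 4 hCNR1-/- mice. The authors deposited, per spot, the processed intensity of Feature Extraction version 12.0.3.1, which is background-corrected within the array but not scaled across arrays. A second deposited column, a score, differed by at most 0.005 from the array's own z-score of log intensity, and served as an alternative. For that use it was multiplied by 3.46, the mean over arrays of the SD of log2 intensity. Values given with the z-scores are on this rescaled scale. The earlier steps of the array analysis are referred by the Methods to another publication.

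Groups came from the sample labels. Intensities were converted to log2, flagged outlier spots were left out, each array's 75th percentile over non-control spots was subtracted and spots of a probe were averaged. A probe counted as well above background where at least 50% of its spots had the software's flag. Accessions were matched to RefSeq names (GRCm38.p6) for 28331 of 55681 probes. The array design names an older build, so no probe positions were used. The gene order and the upstream windows came from GRCm38.p6. Genes with a probe that passed on at least 4 of 8 arrays were tested, on the brightest such probe.

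Genotypes were compared by a two-sided test in R version 4.3.3, with the functions lmFit and eBayes (limma version 3.58.1), and p-values were adjusted over 11072 genes by Benjamini-Hochberg. An exact permutation test over 70 assignments was run for single members. Tested on simulated data for this comparison with 200 of 11072 genes changed, the fit recovered 81% of those changed by 2 log2 units and 28% of those changed by 1, with 0 of the wrong sign and 7 false calls. The simulated arrays had no array-wide differences and the same SD in both genotypes. In the data the median SD was 0.29 in hCNR1+/+ and 0.45 in hCNR1-/-, so these rates may not carry over. The number of arrays, 4 per group, limits the precision. Alternatives covered scaling, background correction, the dim-probe filter, how probes were combined, the variance model, the replicate number as a block and leaving out each array.

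The members and gene lists were chosen with earlier results of these data known. The genes named were members with an adjusted p below 0.05, those with a fold change above 2 and p below 0.05, and the brightest tested member of each subfamily, with other members by range and count, to which members without overlap or with an unadjusted p below 0.05 and further members of the small families were added after their values were seen. From the other lists, genes past the adjusted threshold or else the 2 with the smallest p were named, except 1 that is not reported here. Same-numbered arrays of the 2 genotypes shared a column of the slide, and their deviations had correlations of 0.21, -0.16, -0.05 and 0.02 over genes. The labels do not say whether the numbers also pair the mice, and these correlations cannot decide it.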

Additional observations from a re-analysis of the deposited data

Results flagged for a closer look

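In 2 of 50 groups of 4 arrays 1 array stood apart from the other 3, where chance gives about 1 in 20. *Gsto1* had a log2 signal of 6.13 in hCNR1-/- replicate 4 and 6.94 to 7.06 in the other hCNR1-/- arrays, a gap of 0.874 of the group's range. *Ugt3a2* had 2.59 in the same array and 4.23 to 4.40 in the others, a gap of 0.905 of the range. Both low values were on the dimmest array, and its part in them was not tested.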

How the results depend on the processing

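Over the 18 named members, 346 alternative values kept their direction and their side of the adjusted threshold, 17 reversed, 13 lost the threshold (*Sult2a8*) and 1 gained it (*Ugt2b1*). *Sult2a8* stayed above 0 in all 21 alternatives (0.89 to 1.64 on the log2 scale) and past the adjusted threshold in 8. The count of members that rose at the adjusted threshold was 0, not 1, under median scaling, without scaling, with the percentile taken over probes well above background on all arrays, with the z-scores, with normexp, without a filter on dim probes and with the replicate block, and 0 to 1 when single arrays were left out. Left-out arrays aside, the shares of all tested genes that rose were, in the same order, 0.226%, 0.00903%, 0.912%, 0.271%, 0.253%, 0.0375% and 0%. The count that fell was 4 with array weights (*Gstm3*, *Gstm4*, *Ugt2b1* and *Ugt2b35*). With these weights 5.83% of all tested genes fell, and 19.7% rose beside 1 member, *Sult2a8*. By the fold rule, *Sult2a8* alone was higher, without *Sult1d1* and *Sult1e1*, in some settings. These were quantile normalization, the percentile over probes well above background on all arrays, the z-scores, normexp and the replicate block. The count was 0 without scaling, and 1 to 3 with single arrays left out. Left-out arrays aside, the shares of all tested genes were, in the same order, 4.06%, 3.23%, 3.59%, 1.31%, 4.86% and 0.786%. Under median scaling and without a filter on dim probes the count was 2, *Sult1d1* and *Sult2a8*. The shares of all tested genes there were 3.86% and 3.22%. By the same rule 2 were lower with quantile normalization, without scaling, with the percentile over probes well above background on all arrays (*Mgst1* and *Ugt2b1*) and without a filter on dim probes (*Gsto2* and *Ugt2b1*), 0 with median scaling, normexp, probes well above background on all arrays and array weights, and 0 to 2 with single arrays left out. Over all tested genes the shares lower were, in the same order and left-out arrays aside, 4.08%, 5.69%, 5.78%, 2.32%, 2.94%, 0.966%, 1.73% and 2.83%. With the z-scores 1 member was lower by the fold rule, *Mgst1* in place of *Ugt2b1*, beside 4.22% of all tested genes. The replicate block (the replicate number in the fit) thus ended the call of *Sult2a8*, and 0% of all tested genes passed the adjusted threshold with it in either direction. Same-numbered arrays shared a slide column, and whether the numbers pair the mice is not known. Without scaling, the median of the members was -0.73 and that of all genes -0.47, and with the percentile over probes well above background on all arrays the median of all genes was -0.08.

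No reversed value below was past a threshold. *Gstt1* was -0.10 with quantile normalization and -0.38 without scaling, where *Gstp2* was -0.064, *Sult1a1* -0.26 and *Ugt2b38* -0.14. *Gstm1* was 0.052 with the z-scores. With array weights *Gsta3* was 0.20, *Gstk1* 0.069 and *Ugt1a6b* 0.22. With single arrays left out, *Gstm1* ran from -0.22 to 0.10, *Gsta3* from -0.32 to 0.18, *Ugt1a6b* from -0.38 to 0.22 and *Gsto1* from -0.27 to 0.10. Beyond what each setting changes by construction, the cause was not tested. A slide or scan block was not run, with 1 slide and 1 scan day. Signal over background limits the 19 members that were not tested.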
